A study of Mus musculus with 19 samples.

Results

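The glucocorticoid receptor gene *Nr3c1* and 8 genes that the receptor is known to induce were followed in the cornea and conjunctiva of mice with free access to food (ad libitum, AL) or under calorie restriction (CR). The 9 members were *Nr3c1*, *Fkbp5*, *Tsc22d3*, *Sgk1*, *Zbtb16*, *Klf9*, *Dusp1*, *Mt1* and *Mt2*, chosen by gene symbol from the 24552 genes listed in each tissue's table, and all 9 were tested in both tissues. The cornea gave 5 AL and 5 CR libraries and the conjunctiva 4 AL and 5 CR libraries, 10 and 9 in all, from female C57BL/6 mice (C57BL/6J in the study's methods) with no transgene. AL mice could eat at any hour, and CR mice received less food. The titles of all 19 libraries carry the marks 6M and 50W, which the labels do not explain, and the study's methods describe a restriction of some months that began in adult mice. The corneal epithelium was scraped and the conjunctiva was cut out whole. The methods describe 2 dietary cohorts, at different sites and on different chows. Their account of the second places the daily feeding of CR mice shortly before the dark hours. It also gives CR mice a chow richer in vitamins and micronutrients than that of AL mice. Which cohort gave these libraries, and the hour of collection, are not given in the sources used here. Less food, a set mealtime and, if the second cohort was used, the richer chow therefore cannot be told apart.

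Glucocorticoids (corticosterone in the mouse) cross the cell membrane and bind the glucocorticoid receptor, which waits in the cytoplasm in a complex with heat shock proteins and immunophilins. The bound receptor moves to the nucleus, sits on glucocorticoid response elements and raises genes that damp inflammation and shift metabolism, and it also holds back inflammatory genes. Corticosterone in the blood follows the time of day and of meals and rises with fasting, and synthetic glucocorticoids are in wide use against inflammation of the ocular surface. None of these genes answers to the receptor alone. *Dusp1* and *Sgk1* also respond to stress, *Mt1* and *Mt2* to zinc, and *Klf9* to thyroid hormone.

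The 250 bases before an annotated start were taken from RefSeq (GRCm38.p6), where 7 of the 9 members had an entry and *Nr3c1* and *Zbtb16* had none. Printed is 1 window for each of the 4 members in which any of 3 motifs was found, so these were chosen for their letters. The *Klf9*, *Mt1* and *Mt2* windows held none of the 3. Capitals mark the motifs, each searched on both strands. They are the hexamer AGAACA of the glucocorticoid response element, the E-box CACGTG that clock proteins bind, and the cyclic AMP response element TGACGTCA. The sequences run 5′ to 3′ on the gene's strand.

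*Sgk1*, chr10:21993640-21993889, plus strand: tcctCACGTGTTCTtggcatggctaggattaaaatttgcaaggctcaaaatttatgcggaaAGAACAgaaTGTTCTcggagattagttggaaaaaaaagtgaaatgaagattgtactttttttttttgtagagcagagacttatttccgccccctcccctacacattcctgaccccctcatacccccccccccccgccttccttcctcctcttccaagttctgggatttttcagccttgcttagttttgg

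*Tsc22d3*, chrX:140600523-140600772, minus strand: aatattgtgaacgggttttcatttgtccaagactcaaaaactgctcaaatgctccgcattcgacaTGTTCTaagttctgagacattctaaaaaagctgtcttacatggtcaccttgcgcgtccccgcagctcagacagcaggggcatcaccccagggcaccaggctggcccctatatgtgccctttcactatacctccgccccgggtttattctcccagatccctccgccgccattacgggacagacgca

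*Fkbp5*, chr17:28486150-28486399, minus strand: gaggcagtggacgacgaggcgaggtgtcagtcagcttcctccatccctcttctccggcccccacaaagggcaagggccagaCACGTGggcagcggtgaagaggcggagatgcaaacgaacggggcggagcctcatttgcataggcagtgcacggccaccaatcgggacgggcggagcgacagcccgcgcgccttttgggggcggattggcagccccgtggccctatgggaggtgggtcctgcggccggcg

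*Dusp1*, chr17:26508473-26508722, minus strand: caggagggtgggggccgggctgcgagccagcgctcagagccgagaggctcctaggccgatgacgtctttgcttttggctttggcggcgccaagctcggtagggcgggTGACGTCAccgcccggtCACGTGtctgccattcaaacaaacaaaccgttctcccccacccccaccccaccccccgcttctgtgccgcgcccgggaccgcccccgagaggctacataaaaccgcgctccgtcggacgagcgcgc

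The *Sgk1* window, 1 of 6 for that gene, held the full palindrome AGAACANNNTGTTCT, which begins 189 bases before the start. Of 32851 mouse windows of this length, 3 (0.00913%) held it. The same *Sgk1* window has a further hexamer that overlaps an E-box. The *Tsc22d3* window, 1 of 3, held 1 hexamer 185 bases before the start, a motif found in 16.1% of windows. The *Fkbp5* window held 1 E-box 169 bases before the start (6.02% of windows held an E-box) and no hexamer. The *Dusp1* window held a cyclic AMP response element, at 143 bases and present in 1.55% of windows, and an E-box at 126 bases. The metal response element core (TGCACNC or TGCGCNC) was also searched. It occurred 3 times in the *Mt2* window and 1 time in the *Mt1* window, neither of them printed, and 21.4% of windows held it. A match describes letters in a short window and is not a site of binding.

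In the cornea, *Fkbp5* and *Tsc22d3* rose under CR. These were 2 of 9 members called, where 1.22% of all 12278 genes tested were called and 0.749% were called higher (limma, Benjamini-Hochberg adjusted p under 0.05 and fold over 1.5). In the conjunctiva 0 of 9 members were called by limma, where 0.359% of 13929 genes were (0.223% higher), and 3 of 9 had an unadjusted p under 0.05, against 9.4% of all genes. *Nr3c1* itself did not pass the test in either tissue. Without a test, 7 of 9 members in the cornea and 8 of 9 in the conjunctiva had a higher fitted value under CR, and 6 were higher in both. The median log2 change of the members was 0.30 (cornea) and 0.33 (conjunctiva), beside −0.027 and −0.016 over all genes, of which 46.9% and 48.0% had a higher fitted value. No member differed between tissues in its change after adjustment (0 of 9 by the limma estimates, with 2 of 11929 genes, 0.0168%, passing). At an unadjusted p under 0.05 it was 1 of 9, *Zbtb16*, against 7.48% of all genes.

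**Figure D1:**
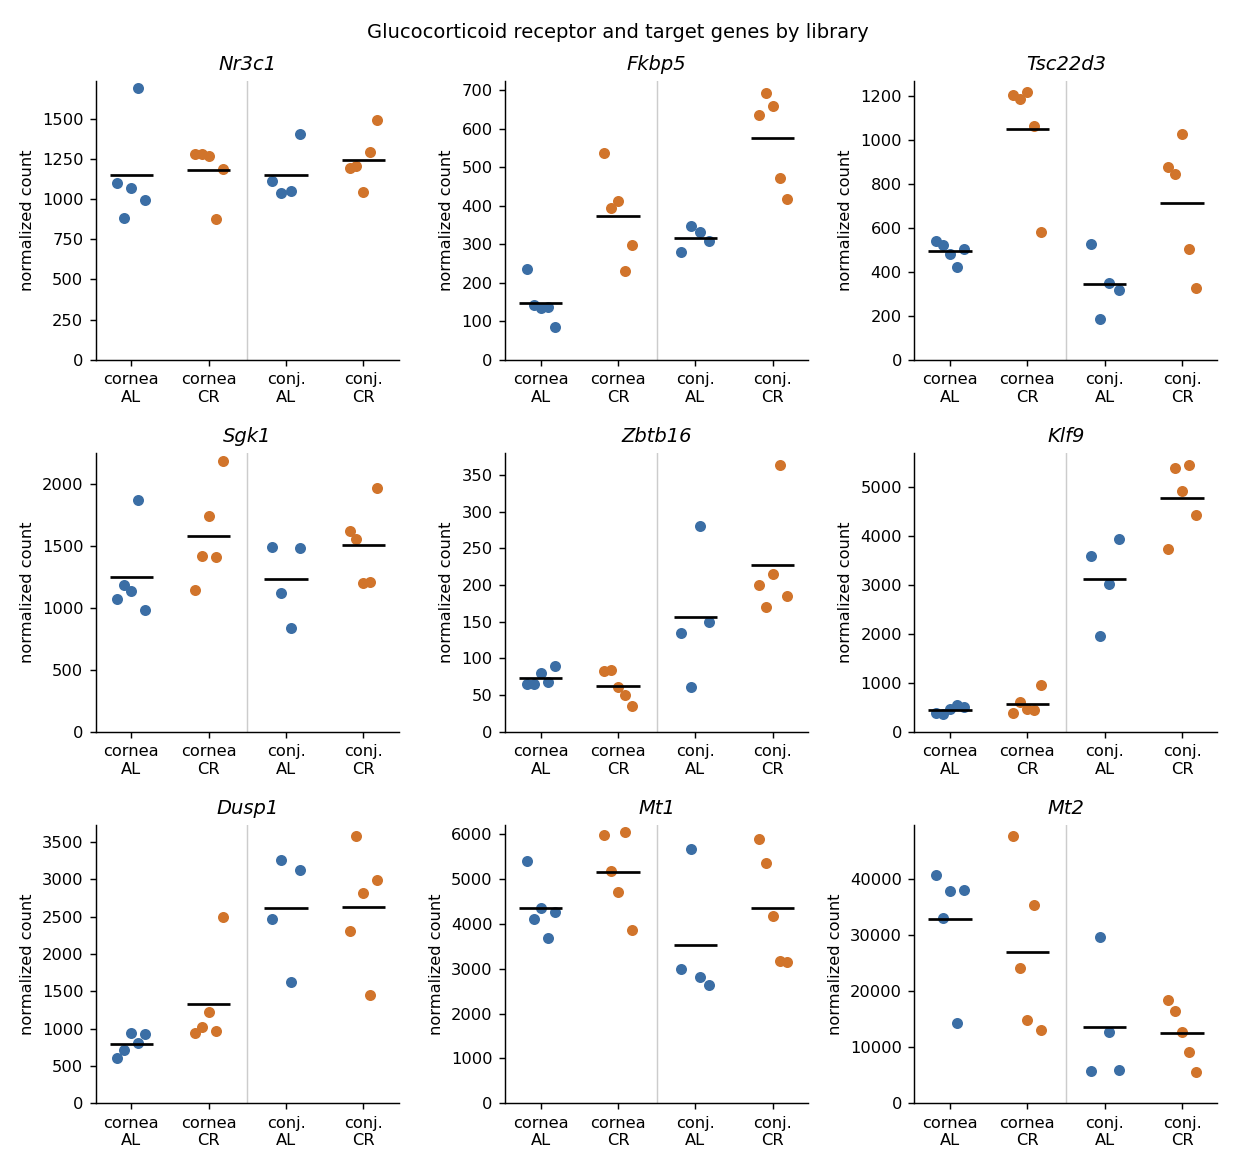
Normalized counts (vertical axes, starting at 0) of the 9 members in each library, with AL in blue, CR in orange and a bar at the mean of each group; replicate order runs left to right. *Tsc22d3* in the cornea and *Fkbp5* in the conjunctiva show every CR library above every AL library, while *Nr3c1* overlaps in both tissues.

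Values in the following are normalized counts, that is reads divided by the authors' size factor of the library, and libraries are named by diet and the number in the label. *Nr3c1* encodes the receptor. In the cornea it stood at 1099, 885, 1067, 1694 and 992 in AL 1 to 5 and at 1281, 1282, 1270, 876 and 1187 in CR 1, 2, 3, 4 and 7. In the conjunctiva it stood at 1112, 1036, 1048 and 1404 in AL 1, 3, 4 and 5 and at 1192, 1204, 1045, 1294 and 1490 in CR 1 to 5. The diets overlapped in both tissues, and cornea AL 4 was above every CR library. The log2 change was 0.063 ± 0.16 (SE) in the cornea (95% confidence interval −0.27 to 0.40, limma adjusted p = 0.866) and 0.12 ± 0.15 in the conjunctiva (−0.19 to 0.43, adjusted p = 0.854). These intervals leave room for changes of either sign.

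*Fkbp5* encodes an immunophilin that binds the receptor complex, lowers its affinity for hormone and is itself induced, which closes a feedback loop. In the cornea, *Fkbp5* was 237, 142, 135, 136 and 85.5 in AL 1 to 5 and 537, 394, 414, 231 and 298 in CR 1, 2, 3, 4 and 7. The 2 groups touched at 1 point, where CR 4 lay just below AL 1, and the other 4 CR libraries lay above all AL libraries. The mean went from 147 ± 55.0 (SD, n = 5) to 375 ± 117 (n = 5), a log2 change of 1.36 ± 0.25 (SE), or 2.57-fold, with limma adjusted p = 0.0137. The call was lost without CR 2 (adjusted p = 0.0508) or CR 3 (adjusted p = 0.0552), while the log2 change stayed between 1.18 and 1.55 when any 1 library was left out.

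In the conjunctiva, *Fkbp5* was 281, 348, 331 and 310 in AL 1, 3, 4 and 5 and 637, 694, 658, 473 and 417 in CR 1 to 5. All 5 CR libraries lay above all 4 AL libraries, as in 1 of 9 members, beside 1.92% of all genes. The mean went from 317 ± 29.1 (SD, n = 4) to 576 ± 123 (n = 5). The log2 change was 0.83 ± 0.18 (SE), with limma adjusted p = 0.0594, so it missed the threshold. *Fkbp5* passed without CR 5, its lowest CR library (adjusted p = 0.0118), and under 3 other settings (adjusted p = 0.0461 with quantile normalization, 0.00345 with array weights and 0.0128 with the share of genes without reads as a covariate). It did not pass with any other library left out (highest limma adjusted p = 0.209). Nor did it pass under the remaining settings (highest adjusted p = 0.273), and the log2 change was 0.76 at its lowest. The change in the conjunctiva was 0.53 ± 0.31 lower on the log2 scale than that in the cornea, a difference that did not pass its test (adjusted p = 0.727).

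*Tsc22d3* encodes GILZ, a leucine zipper protein that restrains NF-kappaB and AP-1 and carries part of the anti-inflammatory action of glucocorticoids. In the cornea it was 539, 521, 481, 424 and 506 in AL 1 to 5 and 1205, 1186, 1217, 1064 and 582 in CR 1, 2, 3, 4 and 7. No CR library reached down to the AL range, and CR 7 stood far below the other 4 CR libraries. *Tsc22d3* and *Dusp1* were the 2 of 9 members with every CR library above every AL library in the cornea, beside 2.08% of all genes. The mean went from 494 ± 44.8 (SD, n = 5) to 1051 ± 269 (n = 5), a log2 change of 1.04 ± 0.18 (SE) with limma adjusted p = 0.00497. The call held with each library left out in turn (highest adjusted p = 0.0269) and had its lowest adjusted p without CR 7 (log2 change 1.24, adjusted p = 9.8e-06).

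In the conjunctiva, *Tsc22d3* had nearly the same log2 change, 1.03 ± 0.39 (SE), but the libraries scattered more. It was 529, 185, 351 and 316 in AL 1, 3, 4 and 5 and 879, 843, 1026, 502 and 325 in CR 1 to 5. CR 1, 2 and 3 lay above all AL libraries, whereas CR 4 and CR 5 lay within the AL range. In limma this gave adjusted p = 0.432. The difference between the tissues was −0.016 ± 0.43 (adjusted p = 0.995), an error too wide to call the changes alike.

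**Figure D2:**
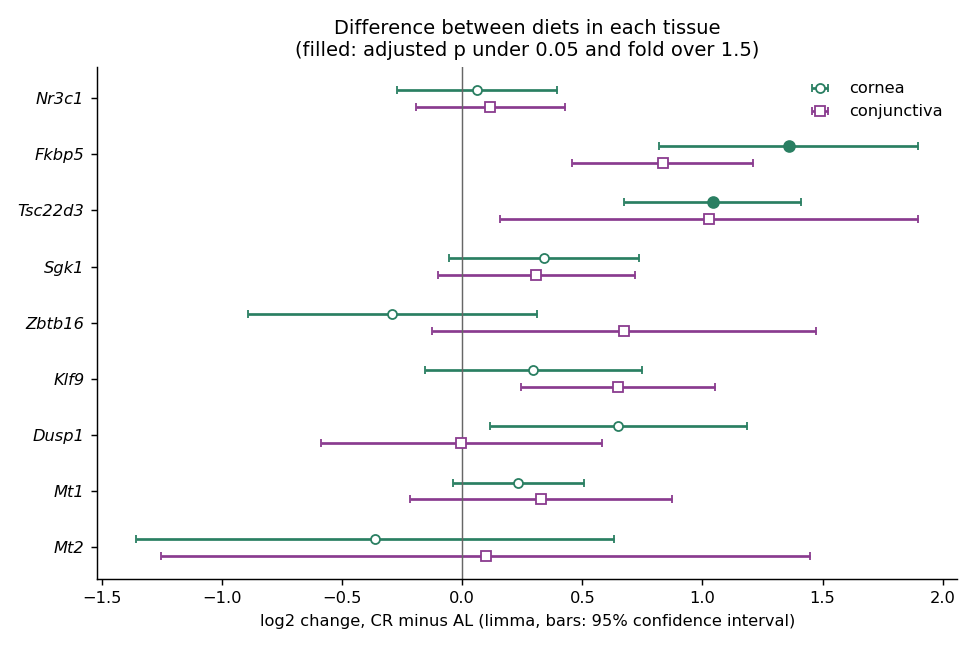
Log2 change of CR against AL (horizontal axis) for each member in the cornea (circles) and conjunctiva (squares), with 95% confidence intervals from limma; filled symbols mark called genes. *Fkbp5* and *Tsc22d3* in the cornea are filled, and the intervals of *Nr3c1* and *Mt2* span 0 in both tissues.

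*Dusp1* encodes a nuclear phosphatase that switches off p38 and JNK. In the cornea it was 603, 713, 940, 802 and 932 in AL 1 to 5 and 947, 1021, 1230, 973 and 2491 in CR 1, 2, 3, 4 and 7. The CR libraries all lay above the AL libraries, but the gap between the groups was small and CR 7 alone was far above the rest. CR 7 also had the highest summed level of 8 conjunctival epithelium markers of any cornea library (83326 normalized counts, against 39836 to 57495 in AL and 45298 to 50027 in the other CR libraries) and the lowest of 8 corneal epithelium markers (494383, against 588813 or more in the rest), and the part of this in its *Dusp1*, *Klf9* and *Tsc22d3* values was not tested. Most of the conjunctival sum was *Krt13* and *Muc4*, which averaged 27224 and 15264 normalized counts in cornea AL and 21937 and 13536 in conjunctiva AL. *Muc5ac*, of the same list, reached at most 6.57 in any cornea CR library. The log2 change of *Dusp1* was 0.65 ± 0.25 (SE, limma adjusted p = 0.200), and without CR 7 it was 0.40. With the unadjusted p, 3 of 9 members passed 0.05 in the cornea, where 18.1% of all genes did. In the conjunctiva *Dusp1* ran from 1624 to 3263 in AL and from 1452 to 3582 in CR, with complete overlap and a log2 change of −0.0047 ± 0.27. The difference between tissues was −0.65 ± 0.36 (adjusted p = 0.709).

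*Klf9* encodes a Krüppel-like transcription factor that feeds back on other receptor targets and slows proliferation of epidermal cells. In the conjunctiva it was 3593, 1954, 3015 and 3938 in AL 1, 3, 4 and 5 and 3731, 5387, 4932, 5451 and 4424 in CR 1 to 5. The CR libraries lay above all AL libraries except CR 1, and AL 3 was the lowest of all. The mean went from 3125 ± 869 (SD, n = 4) to 4785 ± 719 (n = 5), and the log2 change of 0.65 ± 0.19 (SE) did not pass (limma adjusted p = 0.211). Without AL 3 it was 0.44. In the cornea *Klf9* was 377, 355, 457, 544 and 508 in AL and 389, 614, 458, 449 and 964 in CR. CR 2 and CR 7 lay above all AL libraries and the other 3 within the AL range (log2 change 0.30 ± 0.21, adjusted p = 0.480, and 0.090 without CR 7).

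*Sgk1* encodes a kinase that keeps epithelial sodium channels at the membrane, and is the member whose start window holds the full response element. It ranged from 981 to 1874 in cornea AL, 1141 to 2185 in cornea CR, 837 to 1489 in conjunctiva AL and 1205 to 1973 in conjunctiva CR. The diets overlapped in both tissues. The log2 change was 0.34 ± 0.19 (SE, limma adjusted p = 0.348) in the cornea and 0.31 ± 0.19 (adjusted p = 0.657) in the conjunctiva. It was 0.21 without cornea CR 7 and 0.13 without conjunctiva AL 4.

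*Zbtb16* encodes PLZF, a zinc finger repressor that is among the most strongly induced receptor targets in several tissues. In the cornea it ran from 64.5 to 89.6 in AL and from 34.4 to 83.9 in CR (log2 change −0.29 ± 0.29 (SE), limma adjusted p = 0.621, and −0.099 without CR 7). In the conjunctiva it ran from 60.6 to 281 in AL and from 170 to 364 in CR, with all 5 CR libraries above the AL median (log2 change 0.67 ± 0.37, adjusted p = 0.606). It was 0.29 without AL 3 and 1.02 without AL 4. The changes had opposite fitted signs, and their difference of 0.97 ± 0.47 had adjusted p = 0.668.

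*Mt1* and *Mt2* encode metallothioneins, small proteins that bind zinc and copper. Together they took 0.320% ± 0.0960 (SD) of the counted reads in cornea AL. *Mt1* was 5391, 4114, 4347, 3671 and 4264 in cornea AL 1 to 5 and 5972, 5174, 4700, 6033 and 3857 in CR 1, 2, 3, 4 and 7 (log2 change 0.23 ± 0.13 (SE), limma adjusted p = 0.354). *Mt2* was 40584, 33038, 37788, 14329 and 37907 in the same AL libraries and 47514, 24030, 14775, 35345 and 13077 in the CR libraries. AL 4, CR 3 and CR 7 were low for *Mt2*, so that both diets spanned several-fold and the log2 change was −0.36 ± 0.44 (adjusted p = 0.701).

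In the conjunctiva *Mt1* ran from 2629 to 5656 in AL and from 3156 to 5886 in CR (log2 change 0.33 ± 0.25 (SE), limma adjusted p = 0.736). *Mt2* ran from 5828 to 29543 in AL and from 5627 to 18398 in CR (0.10 ± 0.58, adjusted p = 0.974). The highest AL value of both genes came from AL 3, which was also the lowest AL library for *Tsc22d3*, *Klf9* and *Zbtb16*. The 2 genes moved together from library to library, with a Pearson r of 0.86 over the 19 libraries after group means were removed, but not in a fixed ratio. Reads of *Mt2* over reads of *Mt1* ranged from 3.90 to 8.89 in cornea AL and from 3.14 to 7.96 in cornea CR. Of the 75-base stretches of *Mt2* transcripts, 30.2% also occur in *Gm45774*, so its count depends on how such reads were assigned.

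Several members followed the share of listed genes with 0 reads in a library, which lay between 38.7% and 47.6% in cornea libraries and between 33.6% and 40.1% in conjunctiva libraries. For how many of all genes this holds was not counted, so it cannot be called particular to the members. Genes called in the cornea numbered 62 with this share as a covariate and 150 without it. In the cornea the Pearson r of the log2 values over 10 libraries was 0.88 for *Sgk1*, 0.81 for *Klf9*, 0.71 for *Dusp1* and −0.88 for *Mt2* (permutation p = 0.00107, 0.00106, 0.00529 and 0.00203; adjusted over 18 relations p = 0.00642, 0.00642, 0.0190 and 0.00913). Spearman's rho for them was 0.76, 0.89, 0.82 and −0.71 (permutation p = 0.0152, 0.00114, 0.00561 and 0.0259; adjusted p = 0.0684, 0.0118, 0.0337 and 0.0931). After removal of the 2 libraries most distant from the median share, r became 0.90, 0.67, 0.55 and −0.88. The share was itself mostly higher under CR in the cornea, so r was also taken with the mean of each diet removed and tested by permuting libraries within diets, a check added after the pooled values were seen. It was then 0.85 for *Sgk1*, 0.79 for *Klf9* and −0.92 for *Mt2* (exact permutation p = 0.00799, 0.0106 and 0.00479; adjusted p = 0.0478, 0.0478 and 0.0431). For *Dusp1* it was 0.54 and did not pass (exact permutation p = 0.141, adjusted p = 0.240). For *Mt1*, with a pooled r of −0.26 (permutation p = 0.449), it was −0.78 and did not pass the adjustment (exact permutation p = 0.0224, adjusted p = 0.0808).

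For *Fkbp5* and *Tsc22d3* the relation did not pass, and in the cornea its sign turned once diet means were removed (pooled r = 0.37 and 0.29 in the cornea, permutation p = 0.281 and 0.396, rho 0.36 for both with permutation p = 0.312 and 0.313). It was then −0.29 and −0.56 in the cornea (exact permutation p = 0.436 and 0.147, adjusted p = 0.490 and 0.240). In the conjunctiva the pooled r was 0.062 and −0.061 (exact permutation p = 0.873 and 0.875). With diet means removed it was −0.72 and −0.51 there (exact permutation p = 0.0462 and 0.202, adjusted p = 0.128 and 0.280), so the sign turned for *Fkbp5* in that tissue too. In the conjunctiva *Nr3c1* had the highest r, 0.97 over 9 libraries (exact permutation p = 5.0e-05, adjusted p = 8.9e-04), with rho 0.92 (exact permutation p = 0.00131, adjusted p = 0.0118), and r was 0.95 without the 2 farthest libraries and 0.97 with diet means removed (exact permutation p = 6.9e-04, adjusted p = 0.0125). For *Sgk1* there, r was 0.76 (exact permutation p = 0.0163, adjusted p = 0.0488) and rho 0.70 (exact permutation p = 0.0433, adjusted p = 0.130), and r fell to 0.45 without the 2 farthest libraries. With diet means removed it was 0.70 (exact permutation p = 0.0497, adjusted p = 0.128). With this share as a covariate, the log2 changes in the cornea were 1.55 for *Fkbp5* (limma adjusted p = 0.0255) and 1.29 for *Tsc22d3* (adjusted p = 0.00100), whereas those of *Sgk1* and *Klf9* went to −0.067 and −0.14 that of *Mt2* to 0.51 and that of *Dusp1* to 0.32, none of these 4 past the threshold. *Mt1* went to 0.48 (adjusted p = 0.0587), and *Sgk1* in the conjunctiva to 0.10.

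**Figure D3:**
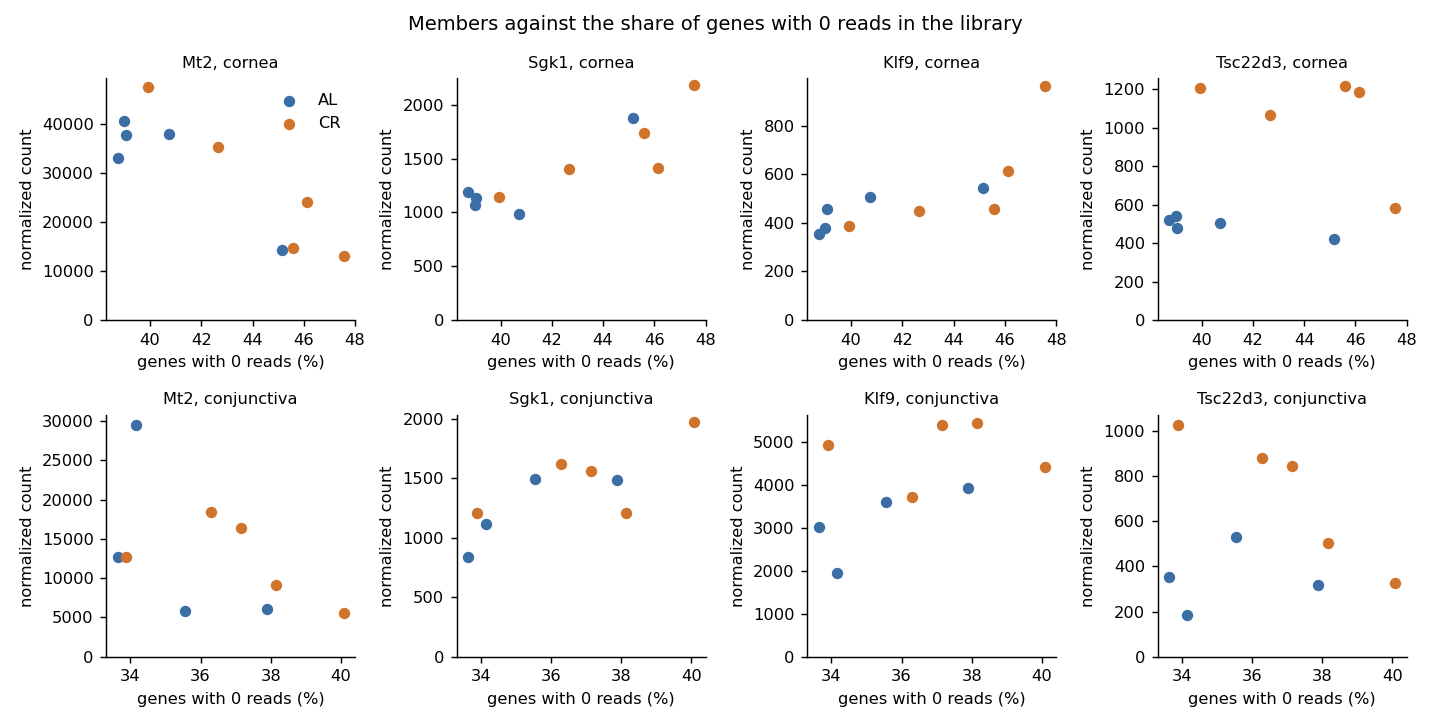
Normalized counts (vertical axes) of *Mt2*, *Sgk1*, *Klf9* and *Tsc22d3* against the percentage of genes with 0 reads in the library (horizontal axes), in the cornea (top) and conjunctiva (bottom), AL in blue and CR in orange. In the cornea *Mt2* falls and *Sgk1* climbs along the axis (r = −0.88 and 0.88 over both diets), and *Tsc22d3* separates by diet.

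The 2 tissues were scaled in separate tables, so levels between them are given as reads in every 1000000 counted reads (RPM), with no test. *Klf9* was at 38.7 ± 7.24 RPM (SD) in cornea AL and 265 ± 74.95 in conjunctiva AL, 6.84 times as high and without overlap, and the CR groups were 7.67 times apart, again without overlap. *Dusp1* in AL was at 69.0 ± 13.4 and 221 ± 60.6, and *Fkbp5* in AL at 12.7 ± 4.60 and 26.8 ± 2.17, both higher in the conjunctiva without overlap. Under CR the tissues overlapped for both genes. *Zbtb16* was without overlap under CR, at 5.44 ± 1.88 in the cornea and 17.9 ± 5.59 in the conjunctiva. *Mt2* averaged more in the cornea (2824 ± 920 against 1137 ± 920 in AL) with overlap, as did *Mt1* (376 ± 52.4 against 297 ± 116). *Nr3c1* and *Sgk1* overlapped in both diets, with *Nr3c1* at 99.0 ± 27.3 and 97.2 ± 14.2 in AL.

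The receptor's own complex came next. Of 14 genes for the receptors and their chaperones, 13 were tested in the cornea, where 1 was called, the member *Fkbp5*, and the median log2 change was −0.087. That 1 call is the one already described for the member, so it adds nothing on the other genes of the list. Of all genes, 1.22% were called. The co-chaperone gene *Stip1* had −0.54 (adjusted p = 0.104), the other of 2 at an unadjusted p under 0.05. All 14 were tested in the conjunctiva with 0 called by limma (1 at an unadjusted p under 0.05, *Fkbp5*). *Nr3c2*, the mineralocorticoid receptor, which binds the same hormone, was at 0.039 RPM on average in cornea AL and 0.39 in cornea CR, with libraries at 0 in both, and at 1.56 ± 0.98 RPM (SD) in conjunctiva AL and 0.60 ± 0.44 in conjunctiva CR. *Hsd11b1*, which regenerates active hormone inside cells, averaged 0.87 ± 0.83 RPM in cornea AL and 8.18 ± 1.82 in conjunctiva AL, and *Hsd11b2*, which inactivates it, was at 0 in every conjunctiva library and in every cornea CR library. Of 11 genes for making, converting or exporting corticosteroids, 4 were tested in the cornea and 7 in the conjunctiva, with 0 called in either by limma and 1 at an unadjusted p under 0.05, *Srd5a1* in the conjunctiva (log2 change 1.04, adjusted p = 0.380).

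All 13 coregulators were tested in both tissues and 0 were called by limma (2 at an unadjusted p under 0.05 in the cornea, 0 in the conjunctiva, against 18.1% and 9.4% of all genes). *Ncoa1*, a coactivator of nuclear receptors, had a log2 change of 0.47 in the cornea with adjusted p = 0.0482, below the fold required, and the chromatin remodeler *Smarca4* had −0.27 (adjusted p = 0.169).

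Of 40 other genes known to be induced by glucocorticoids, 29 were tested in the cornea and 2 rose, *Per1* and *Anxa1*, with 19 fitted higher and 10 lower and a median of 0.10. *Per1*, a clock gene that carries a response element for the receptor, went from 73.5 ± 34.9 (SD, n = 5) to 446 ± 134 (n = 5), with log2 change 2.67 and limma adjusted p = 2.5e-04. *Anxa1*, which encodes the anti-inflammatory protein annexin A1, went from 2503 ± 338 to 3922 ± 1018 (0.62, adjusted p = 0.0448). At an unadjusted p under 0.05, 7 were higher and 5 lower, where 8.52% and 9.55% of all genes were. In the conjunctiva 37 were tested and 1 rose, *Glul*, the glutamine synthetase gene, from 6097 ± 261 (n = 4) to 10880 ± 2148 (n = 5; 0.81, adjusted p = 0.0330). The median there was also 0.10, and 9 were higher and 1 lower at an unadjusted p under 0.05, against 4.53% and 4.87% of all genes. *Per1* in the conjunctiva had a log2 change of 1.55 with adjusted p = 0.117.

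Of 21 inflammatory genes that glucocorticoids hold back, most were sparse. In the cornea 10 were tested and 8 had a lower fitted value, with a median of −0.81 and 0 called by limma (0 at an unadjusted p under 0.05). In the conjunctiva 14 were tested and 12 had a lower fitted value, with a median of −0.66, 0 called by limma and 4 lower at an unadjusted p under 0.05, against 4.87% of all genes. In the same libraries all 12 macrophage and all 12 fibroblast markers had lower fitted values (median log2 change −0.50 and −0.68), and their part in these values was not tested. *Mmp9*, a gelatinase, came nearest there, at 482 ± 131 (SD, n = 4) in AL and 224 ± 70.0 (n = 5) in CR (log2 change −1.12, limma adjusted p = 0.0767). *Mmp3* had −0.72 (adjusted p = 0.389) and *Ptgs2* −2.74 (adjusted p = 0.416), the latter from an AL mean of 24.7.

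The lists built around single members were mixed. Some include the members themselves. The TSC22 and Krüppel-like factors include *Tsc22d3* and *Klf9*, metal handling includes *Mt1* and *Mt2*, and the MAPK phosphatases include *Dusp1*. Among 14 TSC22 and Krüppel-like factors, 13 were tested in the cornea and all 13 had a higher fitted value under CR, of which *Tsc22d3* and *Klf13* rose (*Klf13* from 446 ± 149 (SD, n = 5) to 902 ± 213 (n = 5), log2 change 1.04, limma adjusted p = 0.0211). That list had a median of 0.31 there and of 0.47 in the conjunctiva. In the conjunctiva 10 of 14 were fitted higher and 0 were called by limma. At an unadjusted p under 0.05 there were 8, all higher, the members *Tsc22d3* and *Klf9* among them, where 4.53% of all genes were higher. In the sodium transport list around *Sgk1*, *Atp1b1*, a subunit of the sodium pump, rose in the conjunctiva from 5045 ± 794 (n = 4) to 8769 ± 1333 (n = 5; log2 change 0.80, adjusted p = 0.0372). It was the 1 gene called of 8 tested there, and 0 of 8 were called by limma in the cornea (3 at an unadjusted p under 0.05, against 18.1% of all genes), where *Atp1b1* had 1.01 (adjusted p = 0.143). The metal handling list (7 and 8 tested) and the MAPK phosphatases (8 and 11 tested) had 0 called by limma in both tissues. At an unadjusted p under 0.05 there were 1 and 0 metal genes and 3 and 1 phosphatases, against 18.1% and 9.4% of all genes. The 3 in the cornea include the member *Dusp1*. *Slc30a1*, a zinc exporter, had 0.53 in the cornea (adjusted p = 0.0759) and *Dusp3* 0.58 (adjusted p = 0.0759).

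**Figure D4:**
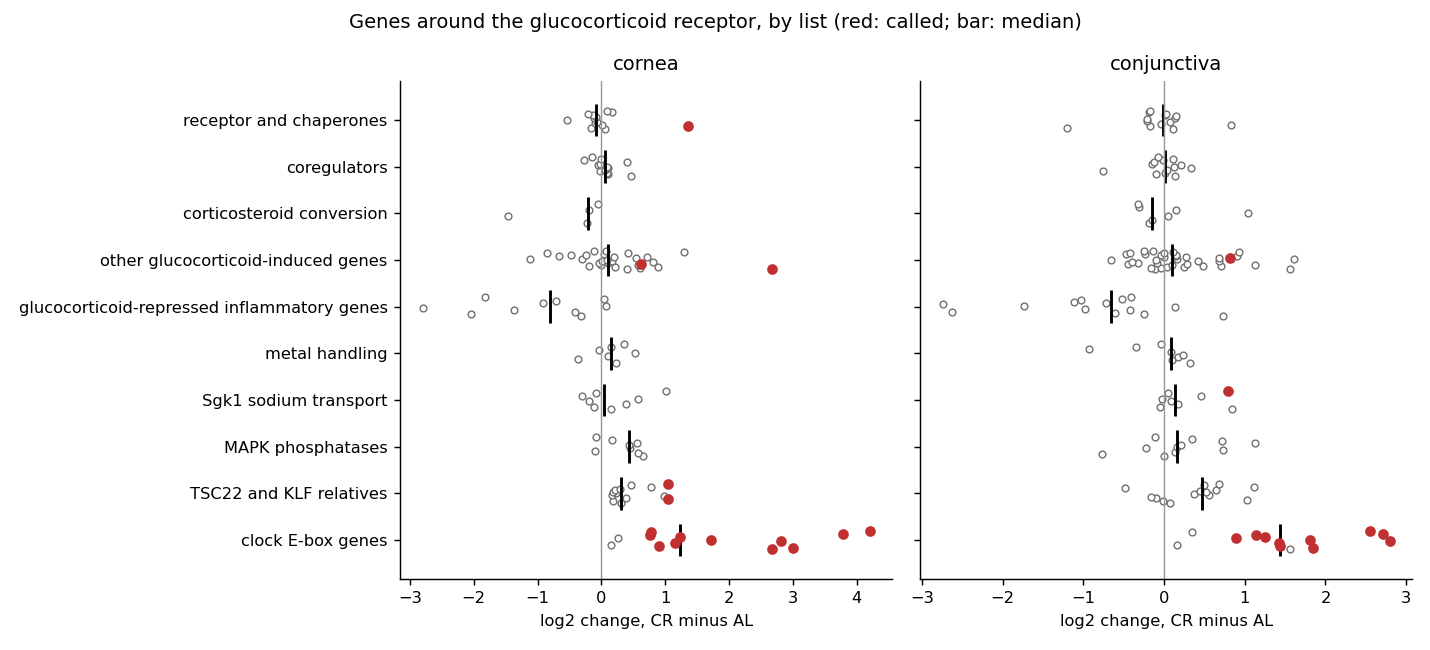
Log2 change of CR against AL (horizontal axis) for each tested gene of 10 lists around the receptor, in the cornea (left) and conjunctiva (right); red points are called, open points are not, and a bar marks the list's median. Red points in lists other than the clock genes are *Fkbp5*, *Per1*, *Anxa1*, *Tsc22d3* and *Klf13* in the cornea and *Glul* and *Atp1b1* in the conjunctiva.

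Other groups of genes moved with diet in the same libraries. Of 13 clock genes driven by E-boxes, 11 were called higher in the cornea (all but *Cry1* and *Hlf*) and 10 in the conjunctiva (all but *Per1*, *Cry1* and *Bhlhe40*), against 0.749% and 0.223% of all genes. *Per1* stands in that list and among the glucocorticoid-induced genes. Their part in the changes of *Fkbp5* and *Tsc22d3* was not tested.

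Marker genes set the identity of the tissues. *Krt12*, the keratin of corneal epithelium, averaged 26420 RPM in cornea AL and 256 in conjunctiva AL, while the goblet cell mucin *Muc5ac* averaged 1.11 and 383 RPM. *Krt13*, listed as conjunctival, was present in both (2348 and 1852 RPM). Of the 8 conjunctival epithelium markers, 6 were tested in the cornea and all 6 had a higher fitted value under CR, with 0 called by limma and 2 at an unadjusted p under 0.05, *Krt4* (log2 change 0.96, adjusted p = 0.137) and *Agr2* (1.05, adjusted p = 0.259). *Muc5ac* and *Spdef*, too low there to be tested, went the other way. Their means were 12.9 and 2.19 normalized counts in cornea AL and 2.95 and 0 in cornea CR. In the cornea 7 macrophage markers of 12 were tested and all 7 had a lower fitted value (summed level of the 12 from 362 to 529 in AL and 273 to 374 in CR), with *C1qa* called. Of 11 lacrimal gland markers 5 were tested and 5 had a lower fitted value, of which *Scgb2b24* and *Aqp5* were called (summed level 30172 to 60982 in AL and 23368 to 36194 in CR, *Prol1* at 0). *Aqp5*, which corneal epithelium also expresses, averaged 44377 normalized counts in AL and made up most of the summed level. *Scgb2b24* ran from 6.19 to 8380 in AL (mean 1759 ± 3702, SD), so its AL mean rested mostly on its highest library. The summed level of the fat cell markers was at most 14.1 in any cornea library, with *Adipoq*, *Plin1*, *Cfd* and *Cidec* at 0 throughout.

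In the conjunctiva all 12 macrophage markers had a lower fitted value under CR (summed level 4282 to 5120 in AL and 2735 to 4031 in CR), with 0 called by limma and 6 lower at an unadjusted p under 0.05, against 4.87% of all genes. All 12 fibroblast markers were also fitted lower (45549 to 67350 in AL and 29502 to 57079 in CR), and 2 of them fell, *Col1a1* and *Col3a1*. Of the 12, 10 were lower at an unadjusted p under 0.05, against 4.87% of all genes. All 9 skeletal muscle markers were fitted higher with wide scatter (15877 to 76950 in AL and 17437 to 160113 in CR), as were the 5 fat cell markers tested of 6 (107 to 1380 in AL and 311 to 1598 in CR). AL 3 had the lowest summed muscle and fat levels of the AL libraries, and CR 5 the lowest muscle level of the CR libraries. AL 3 and CR 5 were also the lowest of their groups for fibroblast (45549 and 29502), macrophage (4282 and 2735) and endothelial sums (1861 and 881). CR 5 was not the lowest CR library for fat cell (510) or lymphocyte markers (326). AL 3 and CR 5 also had the lowest *Tsc22d3* of their groups. Of the macrophage, fibroblast, muscle and fat lists, 0 markers were at 0 in every conjunctiva library, and their part in the members' changes was not tested. In tissue pieces such as these, fewer cells of a type and less RNA per cell cannot be told apart.

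The members did not move as a block from library to library. Over 36 pairs of members and 19 libraries, with the mean of each tissue and diet removed, 17 correlations were positive, the median Pearson r was −0.055, and values ran from −0.71 (*Sgk1* with *Mt2*) to 0.86 (*Mt1* with *Mt2*). Within single tissues some pairs had opposite signs that the pooled values average. *Tsc22d3* with *Klf9* had −0.85 in the cornea and 0.41 in the conjunctiva, and *Klf9* with *Dusp1* had 0.84 and −0.14. Others were alike in both, such as *Mt1* with *Mt2* (0.86 and 0.89). Over all 19 libraries *Fkbp5* and *Tsc22d3* had r = 0.36. Of 11920 other genes tested in both tissues, the 2 most like each member by the same measure were *Cyth3* and *Oxr1* for *Nr3c1* (0.88 and 0.88), *Rassf8* and *Plekha3* for *Fkbp5* (0.86 and 0.85), and *Wnk2* and *Pot1a* for *Tsc22d3* (0.91 and 0.89). For *Sgk1* they were *Mlf2* and *Lrrc41* (0.92 and 0.91), for *Zbtb16* *Fxr1* and *Tigd4* (0.78 and 0.77), for *Klf9* *Apba3* and *Itpr1* (0.88 and 0.87), and for *Dusp1* *Errfi1*, also a glucocorticoid-induced gene, and *Jade3* (0.86 and 0.80). *Mt1* went most with *Epha1* and *Ralgds* (0.91 and 0.87) and *Mt2* with *2200002D01Rik* and *Ewsr1* (0.92 and 0.92). These libraries also share depth and the share of genes at 0, so the values are a description.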

How the data were processed

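Gene values were deposited for 19 libraries, grouped by their labels. The authors trimmed single reads with cutadapt, aligned them to mm10 with STAR and counted them with HTSeq, per the study's methods. The processing notes of the labels name GRCm39 instead, and labels and methods name different library kits, so the use of strand is unknown and levels were not compared between genes. The deposited values are log2(normalized count + 1), which the authors scaled by DESeq2 size factors in 1 table per tissue. Whole reads were recovered for 100% of values (tolerance 0.01 reads), which gave 10354125 to 14681223 counted reads per cornea library and 10726717 to 14433441 per conjunctiva library. A gene at 0 could have had up to 3 reads. That floor covers counting error only.

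Diets were compared within each tissue with limma 3.58.1 (R 4.3.3, trend and robust), over genes averaging 10 or more normalized counts, with Benjamini-Hochberg adjustment over all of them. Genes were called at adjusted p under 0.05 and fold over 1.5. The log2(value + 1) scale understates changes of low genes. The difference between tissues was the difference of the 2 changes over its standard error, which takes the tissues as independent, although per the study's methods several tissues came from each mouse. Permutation tests were two-sided. Those on pooled values were exact for 9 libraries and used 100000 resamples for 10. Those with diet means removed permuted libraries within diets and were exact in both tissues, as were those over numbers shared between tissues. The procedure was tested on simulated data. Libraries are not stated to be separate animals in the labels, so p-values measure the spread between libraries.

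The 9 members, the gene lists and the tests were chosen with earlier results of these data known. Beside the members, the genes named were those of each list called in either tissue, or where none was called up to 3 with the smallest p, and the 2 genes most like each member. Marker levels were added where a result touches them. *Fkbp5*, *Sgk1*, *Zbtb16* and *Klf9* overlap small annotated genes (*Gm22146*; *Gm46215* and *Gm18511*; *Gm32280*; *Mir1192*), whose reads could not be separated. Other settings tried were a pseudocount of 0.5 or 10, a filter of 50 or none, quantile and TMM scaling, array weights, voom on the recovered reads, a replicate block, the share of genes without reads as a covariate, adjusted p alone, and leaving out each library. Promoter windows came from RefSeq (GRCm38.p6).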

Additional observations from a re-analysis of the deposited data

Results flagged for a closer look

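Of 36 groups (9 members in 4 groups), 8 held a library whose gap to its nearest neighbor took an unusually large part of the group's range, by Dixon's 95% critical value. Chance gives about 1 in 20 groups, or 1.8 of 36. In the cornea AL 4 stood apart for 3 members, high for *Nr3c1* (1694 normalized counts) and *Sgk1* (1874) and low for *Mt2* (14329). Cornea CR 7 stood apart for *Dusp1*, high at 2491, and for *Tsc22d3*, low at 582. Cornea CR 4 was low for *Nr3c1* at 876. In the conjunctiva AL 3 was high for *Mt1* at 5656, and CR 4 was high for *Zbtb16* at 364.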

How the results depend on the processing

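The count of members called in the cornea stayed at 2 under every processing alternative and ran from 1 to 2 with 1 library left out. In the conjunctiva it was 0 and became 1 (*Fkbp5*) with quantile normalization, array weights or the share of genes without reads as a covariate, and ran from 0 to 1 with 1 library left out. Genes called in the cornea numbered 150, against 705 with array weights, 99 with voom, 62 with the covariate and 53 to 536 with 1 library left out. In the conjunctiva they numbered 50, against 149 with array weights and 26 to 127 with 1 library left out. The causes were not tested. The number of members whose change differed between tissues stayed at 0.

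Fitted signs turned for members that were not called. With the covariate the log2 change was −0.17 (*Nr3c1*), −0.067 (*Sgk1*), −0.14 (*Klf9*) and 0.51 (*Mt2*) in the cornea and −0.044 (*Nr3c1*) in the conjunctiva. In the conjunctiva *Dusp1* was at 0.0028 with TMM and 0.12 with array weights, and *Mt2* at −0.065 with quantile normalization. With 1 library left out, *Nr3c1* in the cornea ran from −0.022 to 0.21, and in the conjunctiva *Dusp1* ran from −0.22 to 0.19 and *Mt2* from −0.20 to 0.58. Other wide ranges, of 1 sign, were −0.64 to −0.15 for *Mt2* in the cornea and 0.21 to 0.58 for *Mt1* and 0.049 to 0.22 for *Nr3c1* in the conjunctiva. The difference between tissues ran from −0.096 to 0.15 for *Nr3c1*, −0.28 to 0.24 for *Tsc22d3*, −0.21 to 0.093 for *Sgk1* and −0.027 to 0.35 for *Mt1*.

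With the replicate number as a block, 46 genes were called in the cornea and 10 in the conjunctiva, *Mt2* in the conjunctiva was at −0.032, and 2 and 0 members were called. Deviations of libraries with the same number correlated between diets at −0.30 to 0.29 (cornea) and −0.062 to 0.053 (conjunctiva), so the numbers were not taken to pair mice. Of methods that take counts, voom on the recovered reads was run and no other.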

Other observations

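Libraries of the 2 tissues share numbers in their titles, and the study's methods say that mice gave more than 1 tissue, though the labels do not say that a number is 1 mouse. Over the 8 shared numbers, with diet means removed, *Sgk1* ran in opposite directions in the cornea and conjunctiva (Pearson r = −0.89, exact permutation p = 0.0104, adjusted p over 9 members = 0.0938, and Spearman's rho −0.86, exact permutation p = 0.0191, adjusted p = 0.172). After removal of the 2 libraries most distant from the median, r became −0.68. For *Tsc22d3* r was 0.53 (exact permutation p = 0.227, adjusted p = 0.512) and rho 0.64 (exact permutation p = 0.149, adjusted p = 0.464), and for *Fkbp5* r was 0.30 (exact permutation p = 0.476, adjusted p = 0.692) and rho 0.14 (exact permutation p = 0.778, adjusted p = 0.955). Of the 9 members, 0 passed the adjustment.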
